A study of Arabidopsis thaliana with 6 samples.

Results

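The genes described here are the membrane transporters and channels of Arabidopsis thaliana among the genes that the authors listed as changed in seedlings labelled as an epl1a epl1b double mutant. They are the nuclear rows of the 2 deposited tables whose description names a transporter, symporter, antiporter, aquaporin, channel or permease, without lipid transfer proteins and without the plastid symporter gene AT5G59250. This wording found 123 genes among 5330 listed genes, 5298 of them nuclear. They fell into 4 genes for nitrate, 10 for phosphate, 8 for iron and zinc, 12 for sugars, 11 for amino acids and 5 for water, with 73 for other substrates. The wording misses genes described only as a transport protein, so known transporters outside it are given separately, from lists of each pathway.

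The libraries labelled epl1ab carried the genotype epl1a epl1b in the Columbia-0 background, and the Col-0 libraries were wild type. Each genotype had 3 libraries of RNA from whole 14-day-old seedlings, from 3 independent experiments, so roots and shoots were mixed. All were grown on half-strength medium with 1% sucrose at 22 °C in 16 h light and 8 h dark and taken 8 h after dawn. EPL1A and EPL1B belong to NuA4, a complex that acetylates histone H4, and the series title asks how it acts on chloroplast formation.

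Plants take up nitrate, phosphate, metals and water through root membranes and pass sugars and amino acids between leaves, roots and seeds. Each step uses families of membrane proteins. Many of these genes are induced when their substrate is short, so they are commonly read as markers of nutrient status. In chloroplasts, envelope transporters link the stroma to the cytosol.

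Among the labels' targets, EPL1A had 128, 122 and 124 normalised reads in the epl1ab-labelled libraries, against 360.0, 378 and 364 in Col-0. EPL1B went against its label, with 17029, 16995 and 17128 normalised reads in the epl1ab-labelled libraries, against 743, 762 and 654 in Col-0. The positions of the alleles within these genes are not known from the labels, so every direction below is between labels. Normalised reads are reads of a gene divided by the library's scaling factor. The epl1ab-labelled libraries also differed from each other: 15 listed genes of a 16-gene seed maturation list summed to 1172, 204914 and 297258 normalised reads in replicates 1, 2 and 3, against 410.0, 374 and 43.9 in Col-0. Of a 6-gene floral list 5 were listed, all higher, with sums of 600 to 859 normalised reads in the epl1ab-labelled libraries against 118 to 132 in Col-0. Listed genes held 7355421 to 8625707 reads in the epl1ab-labelled libraries and 9265086 to 10938542 in Col-0, which are not library depths.

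Sequences upstream of the members were read for elements known from these pathways, in the 300 bases before each annotated start (RefSeq, TAIR10.1). The core of the zinc deficiency response element, TGTCGACA, which reads the same on both strands, lay in 0.324% of 27443 nuclear promoters. Of the 123 members 3 held it: ZIP4, a zinc transporter induced by zinc deficiency, PHO1;H9 and ABCA5. Their sites are shown because ZIP4 was 1 of 4 zinc transporters that rose, and with capitals on the core they read, 5′ to 3′ on the strand of the gene:
ZIP4: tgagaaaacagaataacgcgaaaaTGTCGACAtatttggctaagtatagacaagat
PHO1;H9: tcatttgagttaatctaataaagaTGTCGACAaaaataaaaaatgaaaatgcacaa
ABCA5: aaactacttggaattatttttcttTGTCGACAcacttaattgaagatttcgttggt
The ZIP4 stretch is chr1:3667147-3667202 on the minus strand, and its core begins 39 bases before the start. The PHO1;H9 stretch is chr3:11048751-11048806 on the minus strand, and the ABCA5 stretch is chr3:17611549-17611604 on the plus strand. ZIP3, ZIP5 and ZIP9 did not hold the core in this window. The phosphate starvation element P1BS, GNATATNC, lay in 6.50% of all promoters, in 8 of the 123 members and in 0 of the 10 phosphate members.

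Transporters were listed higher more often than lower, at a share close to that of all listed genes. Of the 123 genes 88 (71.5%) were listed higher in the libraries labelled epl1ab and 35 (28.5%) lower, where 66.1% of all listed genes were higher and 33.9% lower. These shares of all listed genes stand beside each count below, including those of the pathway lists. In the authors' deposited tables the median log2 fold change was 1.60 for the members listed higher, against 1.94 for all genes listed higher. It was -1.47 for those listed lower, against -1.45 for all listed lower. The edgeR fit held 115 members and called 81 (70.4%) higher and 34 (29.6%) lower, where 63.1% of 4773 fitted genes were called higher and 36.9% lower. All genes in the fit had already passed the authors' thresholds on the same libraries, so these calls repeat a choice and are no separate evidence. The groups did not overlap in 122 of the 123 members, and in 98.5% of all listed genes. With DESeq2 size factors of the listed genes, 34 members were called higher and 35 lower. That scaling moved the log2 fold change by a median of -1.11 over all listed genes (percentiles 5 and 95 at -1.15 and -1.09). It takes most genes as unchanged, while every listed gene was chosen as changed. Values given below under this scaling show that shift and cannot decide whether a member changed. The remaining 8 members were left out of the edgeR fit: ABCA5, ABCA6, ABCB10, ABCB17, OPT5, PHO1;H9, PHT1;3 and PUP3.

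**Figure D1:**
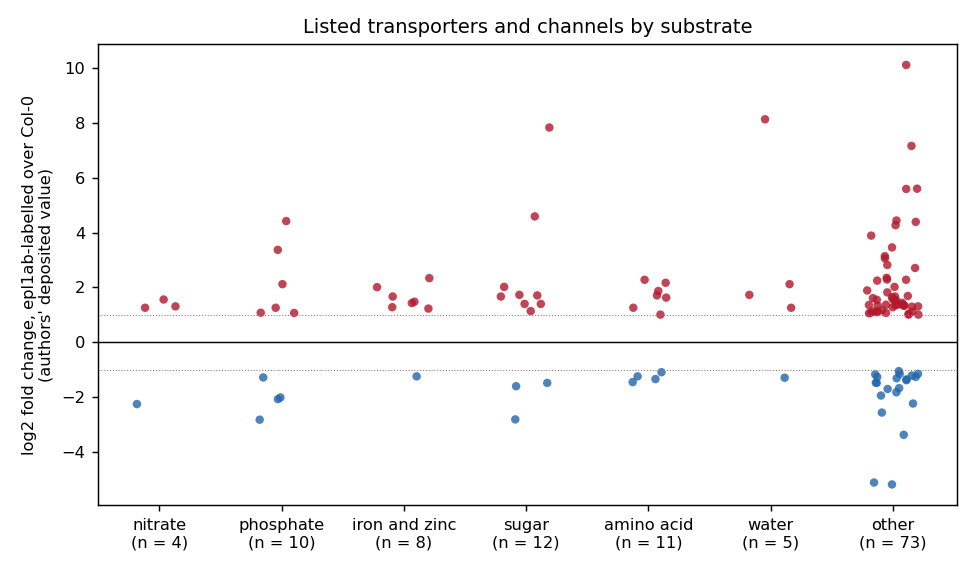
Log2 fold change of the epl1ab-labelled over the Col-0 libraries (y axis, the authors' deposited value) for each of the 123 members, in columns by substrate, with red points for members listed higher and blue for lower; dotted lines mark the tables' threshold of 1 in either direction. Each substrate group holds points on both sides, and the lower points of the 6 named groups stay above -3 while the highest upper points belong to sugar, water and other members.

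Nitrate transport genes moved in opposite directions within the NRT2 family. NRT2.1, the main high-affinity uptake transporter of roots, had 132, 149 and 87.9 normalised reads in the epl1ab-labelled libraries, against 93.0, 15 and 17.1 in Col-0. Col-0 replicate 1 lay within the epl1ab-labelled range, and this was the member whose groups overlapped. Its edgeR log2 fold change was 1.53 ± 0.65 (SE, adjusted p = 0.0497); without Col-0 replicate 1 it was 2.93, and without any other single library the adjusted p lay between 0.0527 and 0.161. NRT2.3, a relative, fell to 10.4, 8.68 and 5.02 normalised reads in the epl1ab-labelled libraries, against 29.0, 37.6 and 47.6 in Col-0. The edgeR log2 fold change was -2.23 ± 0.34 (SE, adjusted p = 0.000416), on few reads. NRT2.6 rose on few reads too, to 20.9 ± 1.61 normalised reads in the epl1ab-labelled libraries, against 8.48 ± 4.45 in Col-0 (SD, n = 3 each).

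SLAH3, an anion channel that passes nitrate, rose evenly. It had 1742, 1661 and 1917 normalised reads in the epl1ab-labelled libraries, against 730.0, 779 and 719 in Col-0, which edgeR put at 1.26 ± 0.09 on the log2 scale (SE, adjusted p = 7.91e-06). The groups were far apart and each was tight, but with DESeq2 size factors of the listed genes the log2 fold change was 0.14. Of 21 known nitrate transport genes 5 were in the tables, 4 higher and 1 lower, where 66.1% of all listed genes were higher. The edgeR fit called the same numbers. The gene among them outside the wording was NPF7.2, also known as NRT1.8, which withdraws nitrate from the xylem: it rose to 1053, 957 and 886 normalised reads in the epl1ab-labelled libraries, against 139, 165 and 196 in Col-0.

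Phosphate carriers split by family member, with 6 listed higher and 4 lower, where 66.1% of all listed genes were higher. PHO1;H1, which loads phosphate into the xylem together with PHO1, fell to 575, 475 and 495 normalised reads in the epl1ab-labelled libraries, against 2105, 1859 and 2241 in Col-0 (log2 fold change -2.01 ± 0.11 SE, edgeR adjusted p = 3.52e-06). PHO1;H2 fell further, by 2.81 ± 0.18 on the log2 scale (SE), with 16.4, 13.5 and 15.1 normalised reads in the epl1ab-labelled libraries, against 101, 109.6 and 109 in Col-0. Every epl1ab-labelled library lay far below every Col-0 library in both genes, and the groups did not overlap in 98.5% of all listed genes. Other PHO1 homologs went the other way. PHO1;H10 rose to 229, 251 and 339.7 normalised reads in the epl1ab-labelled libraries, against 69.0, 61.2 and 57.3 in Col-0 (4.36-fold by edgeR). PHO1;H8 rose to 1275 ± 17.9 normalised reads in the epl1ab-labelled libraries, against 531 ± 115 in Col-0 (SD, n = 3 each), and PHO1;H7 rose to 195 ± 27.9, against 92.3 ± 7.54. The shift from DESeq2 size factors of the listed genes put PHO1;H7 at a log2 fold change of -0.05 and PHO1;H8 at 0.16.

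PHT4;4, an ascorbate transporter of the chloroplast envelope that belongs to a phosphate transporter family, fell to 1555, 1381 and 1416 normalised reads in the epl1ab-labelled libraries, against 6123, 6130.3 and 6011 in Col-0. The fall was 2.07 ± 0.07 on the log2 scale (SE, edgeR adjusted p = 9.12e-07), and replicates of a group differed little. PHT4;2, a relative found in root plastids, rose to 103 ± 9.16 normalised reads in the epl1ab-labelled libraries, against 49.1 ± 7.21 in Col-0 (SD, n = 3 each), but was at -0.04 on the log2 scale with DESeq2 size factors of the listed genes. G3Pp1, a putative glycerol-3-phosphate transporter known to be induced by phosphate starvation, fell to 1337, 1152 and 1368 normalised reads in the epl1ab-labelled libraries, against 3288, 2356 and 3731 in Col-0.

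The remaining phosphate members had too few reads for the edgeR fit. PHT1;3, a plasma membrane phosphate importer, had 9.52, 5.79 and 6.69 normalised reads in the epl1ab-labelled libraries, against 2.00, 0 and 0 in Col-0, a ratio of 10.2 with a 95% exact interval of 2.53 to 88.4 that covers counting error only. PHO1;H9 had 3.46, 12.5 and 9.20 normalised reads, against 0, 0 and 1.22 in Col-0, 22.7 times as many with bounds of 3.76 to 929.8. Of 25 known phosphate transport genes 5 were in the tables, 2 higher and 3 lower, and edgeR called 1 higher and 3 lower. The lower one outside the wording was PHT5;3, a vacuolar SPX-domain protein, with 485 ± 46.7 normalised reads in the epl1ab-labelled libraries and 1114 ± 74.8 in Col-0 (SD, n = 3 each). Among the 9 known PHT1 uptake transporters PHT1;3 alone was in the tables.

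Iron and zinc transporters were higher in 7 of 8 cases (87.5%), where 66.1% of all listed genes were higher. The 4 ZIP proteins, which bring zinc and other divalent metals into the cytosol, all rose. ZIP3 rose most, to 320.3, 515 and 579.9 normalised reads in the epl1ab-labelled libraries, against 80.0, 106 and 93.9 in Col-0 (log2 fold change 2.34 ± 0.25 SE, edgeR adjusted p = 6.21e-05). ZIP5 had 989, 1311 and 1289 normalised reads in the epl1ab-labelled libraries, against 454, 375 and 500.2 in Col-0. ZIP4, whose promoter site is shown above, had 754, 1041 and 1004, against 407, 375 and 409 in Col-0 (log2 fold change 1.23 ± 0.14 SE). In ZIP3, ZIP4 and ZIP5 the lowest epl1ab-labelled library was replicate 1, and it still lay above every Col-0 library. The groups did not overlap in 98.5% of all listed genes either. ZIP9 had 19.2 ± 2.16 normalised reads in the epl1ab-labelled libraries and 4.82 ± 2.59 in Col-0 (SD, n = 3 each), on few reads.

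NRAMP3, which exports iron from the vacuole, rose to 1215 ± 73.2 normalised reads in the epl1ab-labelled libraries, against 499 ± 63.6 in Col-0 (SD, n = 3 each). The metal-nicotianamine transporters diverged: YSL7 rose to 149 ± 22.2 normalised reads in the epl1ab-labelled libraries, against 47.1 ± 14.7 in Col-0, and YSL8 fell to 404 ± 12, against 952 ± 62.3 (SD, n = 3 each). MEB1, described as a vacuolar iron transporter family protein and known from the membrane of endoplasmic reticulum bodies, had 3000.2, 4357 and 4599.9 normalised reads in the epl1ab-labelled libraries, against 1287, 1480.2 and 1515 in Col-0. With DESeq2 size factors of the listed genes NRAMP3, YSL7 and MEB1 were at log2 fold changes of 0.18, 0.56 and 0.35. Of 36 known iron and zinc transport genes 8 were in the tables, 6 higher and 2 lower, with the same numbers called by edgeR. Outside the wording, IREG2, a vacuolar metal transporter, rose to 211, 326 and 310.5 normalised reads in the epl1ab-labelled libraries, against 36.0, 40.8 and 36.6 in Col-0. IRT1, the main iron importer of roots, fell to 27.7, 8.68 and 45.2 normalised reads in the epl1ab-labelled libraries, against 111, 103 and 159.8 in Col-0, opposite to the ZIP genes of its family. HMA3, from the same list, fell to 4.71 ± 1.94 normalised reads, against 27.7 ± 3.16 in Col-0 (SD, n = 3 each).

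Of 12 root marker genes 3 were in the tables, all higher (BGLU23, RHD6 and PLT1), and 9 were not. Their sum ran from 169659.8 to 260392 normalised reads in the epl1ab-labelled libraries and from 93589 to 109648 in Col-0, nearly all of it BGLU23, the main beta-glucosidase of endoplasmic reticulum bodies. BGLU23 had 1.68, 2.44 and 2.57 times its Col-0 mean in epl1ab-labelled replicates 1, 2 and 3, so replicate 1 was its lowest. The same held for ZIP3, ZIP4, ZIP5, MEB1, TIP2;3, TIP4;1 and PIP2;3, which were chosen after their values were seen. It did not hold for all metal members: NRAMP3 had 1248, 1131 and 1266 normalised reads in these replicates, and ZIP9 had 21.6, 18.3 and 17.6. Nor was the order limited to metal and water members. The amino acid members LHT1 (2532, 3036 and 2706) and AVT1E (153, 227 and 318) had it too. How many of all listed genes had replicate 1 lowest was not counted, so the order is not particular to these genes. RHD6, a root hair regulator, had 30.3, 29.9 and 46.9 normalised reads in the epl1ab-labelled libraries, against 20, 7.52 and 15.9 in Col-0, and PLT1, a root stem cell regulator, had 24.2, 29.9 and 19.2, against 12, 3.22 and 14.6. In these markers replicate 1 was not the lowest. The endodermal markers CASP1, CASP2, MYB36 and ESB1 were not in the tables. In whole seedlings a larger share of root and more RNA per root cell cannot be told apart, and their part in the metal and water results was not tested.

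**Figure D2:**
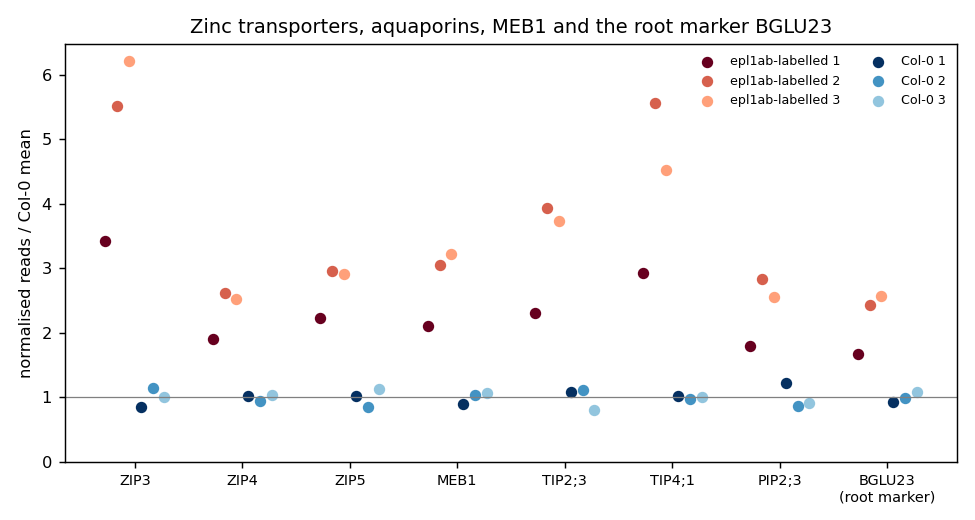
Normalised reads of 7 members and of the root marker BGLU23, each divided by its Col-0 mean (y axis), with red shades for the 3 epl1ab-labelled libraries at the left of each gene and blue shades for the 3 Col-0 libraries at the right; the genes were chosen after their values were seen. In all 8 genes epl1ab-labelled replicate 1 is the lowest of its group and above every Col-0 library, for example 2.93, 5.56 and 4.52 times the Col-0 mean for TIP4;1. The groups did not overlap in 98.5% of all listed genes, and how many had replicate 1 lowest was not counted.

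Aquaporins were higher in 4 of 5 cases (80.0%), where 66.1% of all listed genes were higher. TIP4;1, a tonoplast aquaporin of roots, rose to 294, 557 and 454 normalised reads in the epl1ab-labelled libraries, against 102, 97.8 and 101 in Col-0 (log2 fold change 2.11 ± 0.24 SE, edgeR adjusted p = 8.45e-05). TIP2;3, another root tonoplast aquaporin, rose to 743, 1272 and 1208 normalised reads in the epl1ab-labelled libraries, against 348, 361 and 259.9 in Col-0. PIP2;3, a plasma membrane water channel, rose to 1977 ± 443 normalised reads in the epl1ab-labelled libraries, against 825 ± 162 in Col-0 (SD, n = 3 each); it has a near-identical neighbour, PIP2;2, and reads of 50 bases may be split between them. NIP3;1 fell to 17.9 ± 2.6 normalised reads, against 44.1 ± 5.86 in Col-0 (SD, n = 3 each).

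Of 35 known aquaporin genes 11 were in the tables, 10 higher and 1 lower, all called by edgeR, where 66.1% of all listed genes were higher. The 6 outside the wording were all higher. They include PIP1;1, with 17765 ± 2827 normalised reads in the epl1ab-labelled libraries and 6995 ± 83.6 in Col-0 (SD, n = 3 each), and NIP5;1, the boric acid channel of root boron uptake, with 1221, 1547 and 1674 normalised reads in the epl1ab-labelled libraries, against 250.0, 256 and 305 in Col-0. The boron exporters BOR2 and BOR5 rose as well, by 1.36 ± 0.13 and 1.44 ± 0.13 on the log2 scale (SE).

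TIP3;1, the tonoplast aquaporin of seed storage vacuoles, was the water channel with the largest change and the least even. It had 14.7, 1746 and 2529 normalised reads in epl1ab-labelled replicates 1, 2 and 3, against 13.0, 1.07 and 1.22 in Col-0 replicates 1, 2 and 3. Replicates 2 and 3 lay far above all other libraries, and replicate 1 lay beside Col-0 replicate 1. The edgeR log2 fold change was 8.02 ± 1.87 (SE, adjusted p = 0.00373), but it was 1.44 when epl1ab-labelled replicates 2 and 3 were left out (adjusted p = 0.223), 10.14 without Col-0 replicate 1 and 7.32 without epl1ab-labelled replicate 3. TIP3;2, the other seed aquaporin and outside the wording, had 19.9, 933 and 1439 normalised reads in the epl1ab-labelled libraries, against 4.00, 5.37 and 0 in Col-0. OPT5, an oligopeptide transporter, had 1.73, 272 and 393 normalised reads in the epl1ab-labelled libraries and 0 reads in every Col-0 library, which makes it at least 204-fold higher when 3 counts are taken as the limit for the whole Col-0 group.

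TIP3;1 and OPT5 were the members over 8-fold higher in both epl1ab-labelled replicates 2 and 3 than in replicate 1, as were 160 of all listed genes. The sum of the seed maturation list, most of it from storage protein genes, had the same library pattern. LEC2, a regulator on that list, did not: it had 15.6, 17.4 and 15.9 normalised reads in the epl1ab-labelled libraries, against 2.00, 1.07 and 0 in Col-0. The part of these genes in the results was not tested. The promoter of TIP3;1 is shown because the B3 regulators of seed maturation are known to bind the RY element, CATGCA. The 300 bases before its start, chr1:27521644-27521943 on the plus strand (RefSeq, TAIR10.1), read 5′ to 3′ with the RY matches in capitals:
TIP3;1: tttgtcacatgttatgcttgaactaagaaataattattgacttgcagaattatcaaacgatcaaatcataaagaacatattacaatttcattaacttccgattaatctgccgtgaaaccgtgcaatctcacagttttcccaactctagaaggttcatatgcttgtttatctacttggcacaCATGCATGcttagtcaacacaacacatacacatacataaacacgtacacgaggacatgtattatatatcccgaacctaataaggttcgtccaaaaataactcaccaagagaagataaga
The capitals hold 2 overlapping matches, 1 on each strand, and 582 of the 27443 promoters held at least as many, overlapping or not. At least 1 match lay in 10.3% of all promoters, counting both strands, in 14 of the 123 members, and not in the same window of OPT5.

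**Figure D3:**
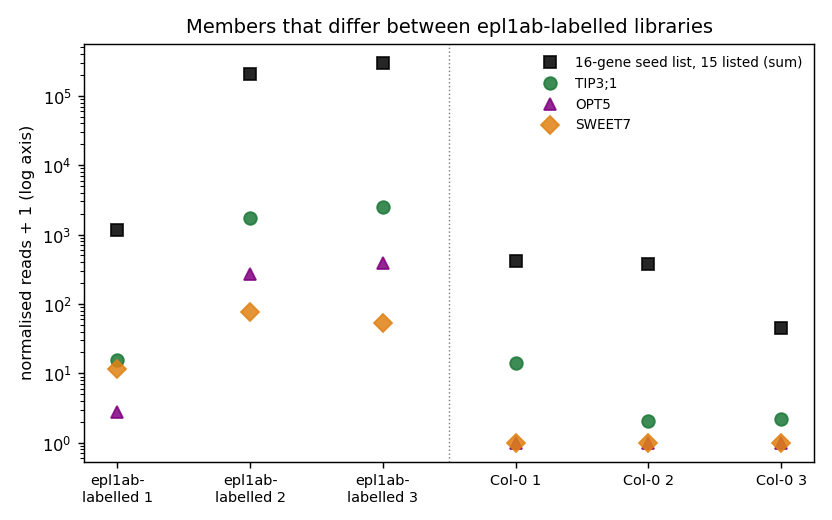
Normalised reads plus 1 (log axis) of TIP3;1, OPT5 and SWEET7 and the sum over the 15 listed genes of the seed maturation list, in each epl1ab-labelled library (left of the dotted line) and each Col-0 library (right). All 4 are lower in epl1ab-labelled replicate 1 than in replicates 2 and 3; TIP3;1 in replicate 1, at 14.7 normalised reads, sits beside Col-0 replicate 1, at 13.0.

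Sugar transporters were higher in 9 of 12 cases (75.0%), where 66.1% of all listed genes were higher. Among them the SWEET facilitators, which let sugars pass out of cells, held the widest changes. SWEET7 had 10.4, 75.2 and 51.9 normalised reads in the epl1ab-labelled libraries and 0 reads in every Col-0 library, at least 41.1-fold higher with that same limit of 3 counts. SWEET3 rose to 34.6, 54.0 and 43.5 normalised reads, against 2.00, 0 and 3.66 in Col-0 (log2 fold change 4.50 ± 0.54 SE, edgeR adjusted p = 0.000119), and its log2 fold change was 5.26 without Col-0 replicate 3. Both genes were at or near 0 in Col-0.

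SWEET10 and SWEET13 lie 7067 bases apart on chromosome 5 and went opposite ways. SWEET10 fell to 2.6, 5.79 and 8.37 normalised reads in the epl1ab-labelled libraries, against 58.0, 17.2 and 42.7 in Col-0 (log2 fold change -2.79 ± 0.57 SE, edgeR adjusted p = 0.00195). SWEET13, a sucrose exporter of the leaf phloem, rose to 39.0, 88.7 and 53.6, against 13.0, 5.37 and 26.8 in Col-0 (log2 fold change 2.02 ± 0.53 SE), and was at 2.69 without Col-0 replicate 3 and at 1.39 when epl1ab-labelled replicates 2 and 3 were left out (adjusted p = 0.0794). SWEET15, known as a senescence-associated gene, had 22.5, 30.9 and 56.9 normalised reads in the epl1ab-labelled libraries, against 10, 15 and 17.1 in Col-0; its edgeR adjusted p was 0.0130, and 0.0544 without Col-0 replicate 1. All these SWEET counts were low, so their folds rest on few reads.

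The abundant sugar members had tight groups. UTR2, a UDP-galactose transporter, rose to 3755, 3637 and 3597 normalised reads in the epl1ab-labelled libraries, against 1096, 987 and 1222 in Col-0 (log2 fold change 1.73 ± 0.09 SE). AT1G19450, described as ERD6-like 4, rose to 2906, 2807 and 2877, against 923, 859 and 914 in Col-0. AT5G11230, described as a UDP-arabinofuranose transporter, rose to 684 ± 55.4 normalised reads in the epl1ab-labelled libraries, against 209.7 ± 10.2 in Col-0 (SD, n = 3 each). Among other monosaccharide carriers of the ERD6-like family, SUGTL5 (ERD6-like 12) and AT3G20460 (ERD6-like 13) rose by 1.40 ± 0.14 and 1.14 ± 0.24 on the log2 scale (SE), and SUGTL3 (ERD6-like 2) fell by 1.60 ± 0.11. TMT3, a vacuolar monosaccharide transporter, fell to 9.97 ± 1.57 normalised reads, against 27.8 ± 4.53 in Col-0 (SD, n = 3 each).

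Of 50 known sugar transport genes 9 were in the tables, 5 higher and 4 lower, and edgeR called 4 in each direction. The 5 outside the wording include SUC2, which loads sucrose into the phloem and had 3308, 3243 and 3051 normalised reads in the epl1ab-labelled libraries, against 7147, 6896 and 6764 in Col-0. MEX1, which exports maltose from the chloroplast, fell to 495 ± 18.7 normalised reads in the epl1ab-labelled libraries, against 1309 ± 22.1 in Col-0 (SD, n = 3 each). STP5, described as a sugar transport protein, rose to 349.6 ± 10.5 normalised reads in the epl1ab-labelled libraries, against 61.2 ± 8.68 in Col-0 (SD, n = 3 each).

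**Figure D4:**
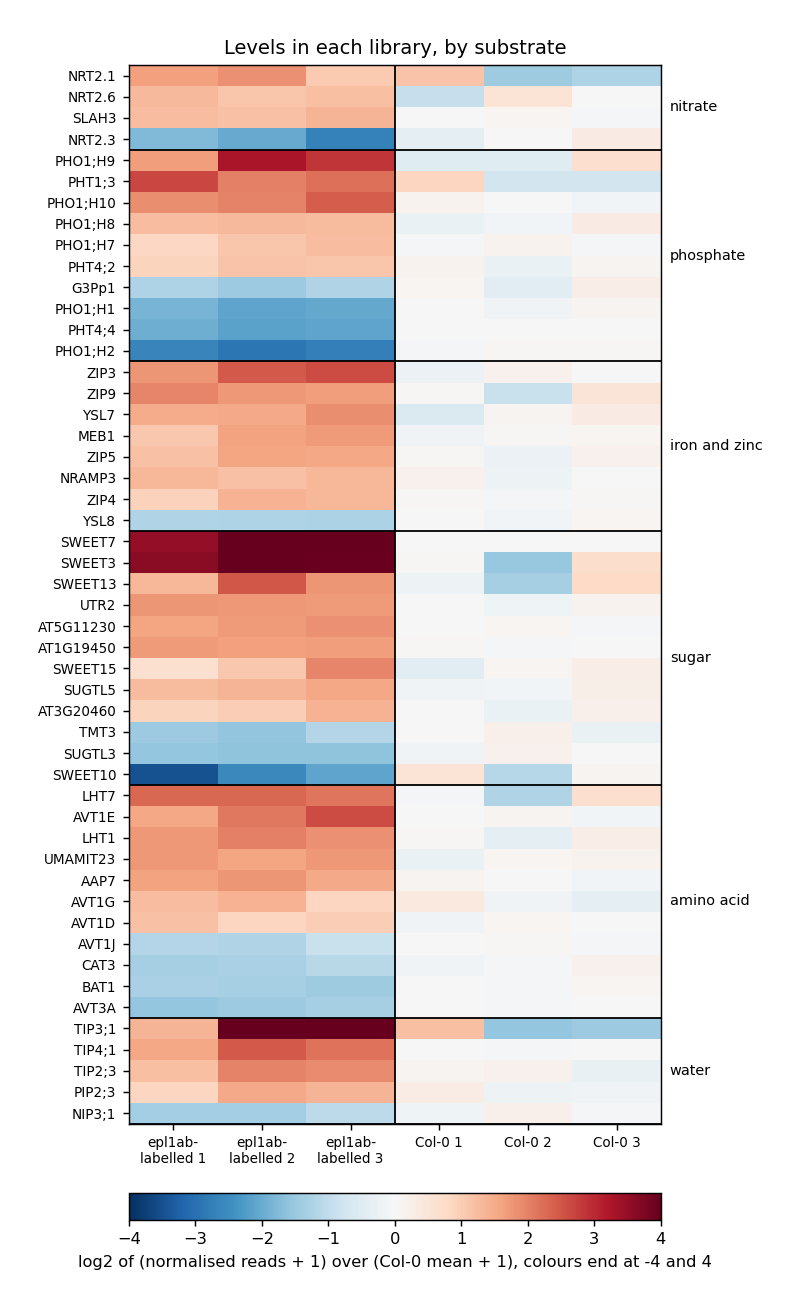
Level of the 50 members with a named substrate in each library, as log2 of normalised reads plus 1 over the Col-0 mean plus 1 (red above, blue below, colours ending at 4 and -4), with epl1ab-labelled libraries left and Col-0 libraries right of the vertical line. Most genes have an even colour across the epl1ab-labelled libraries, TIP3;1 does not, and NRT2.1 is uneven among the Col-0 libraries; PHO1;H7, PHT4;2 and AVT1D, red here, turn slightly negative with DESeq2 size factors of the listed genes.

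Of the 11 amino acid members 7 were higher and 4 lower, a share near that of all listed genes. LHT1, which takes up amino acids into roots and leaf cells, rose to 2532, 3036 and 2706 normalised reads in the epl1ab-labelled libraries, against 783, 569 and 909 in Col-0 (log2 fold change 1.87 ± 0.17 SE, edgeR adjusted p = 3.10e-05). Its relative LHT7 rose to 189, 192 and 169.9, against 37.0, 16.1 and 61.0 in Col-0. AAP7, a probable permease, rose to 462 ± 42.9 normalised reads in the epl1ab-labelled libraries, against 149 ± 11.2 in Col-0, and UMAMIT23 to 122 ± 8.14, against 37.4 ± 5.62 (SD, n = 3 each). No library of 1 group reached the range of the other in these genes, which was so in 98.5% of all listed genes.

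The AVT carriers, a family known for vacuolar amino acid transport, were divided. AVT1E rose to 153, 227 and 318 normalised reads in the epl1ab-labelled libraries, against 52.0, 55.9 and 47.6 in Col-0, and AVT3A fell to 491, 531 and 572, against 1477, 1399.7 and 1477. AVT1D, the neighbour of AVT1E at a gap of 163 bases, rose by 1.01 ± 0.12 on the log2 scale (SE) but was at -0.09 with DESeq2 size factors of the listed genes. AVT1G rose by 1.23 ± 0.31 on few reads, and AVT1J fell by 1.09 ± 0.14 (SE, log2). BAT1, a bidirectional carrier, fell to 716 ± 30.2 normalised reads in the epl1ab-labelled libraries, against 1817 ± 74.4 in Col-0, and CAT3, a cationic amino acid carrier, to 590.5 ± 50.6, against 1398 ± 163 (SD, n = 3 each). Of 29 known amino acid transport genes 9 were in the tables, 7 higher and 2 lower, all called by edgeR. The 5 outside the wording were all higher, among them CAT1, a cationic amino acid carrier, with 467, 652 and 634 normalised reads in the epl1ab-labelled libraries, against 87.0, 81.6 and 80.5 in Col-0. The amino acid exporter UMAMIT29 had 1159, 1383 and 1253, against 404, 312 and 346 in Col-0.

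Among the other substrates the 5 largest falls named by the rule were those of KEA1, ABCG40, ENT3, ABCD2 and CLC-E. KEA1, a potassium-proton antiporter of the inner chloroplast envelope (AT1G01790, chromosome 1, 284350 to 291203, plus strand, TAIR10), fell to 808, 678 and 669 normalised reads in the epl1ab-labelled libraries, against 6827, 8452 and 7063 in Col-0. By edgeR it was 10.4-fold lower (-3.37 ± 0.12 on the log2 scale, SE, adjusted p = 9.15e-07). ABCD2, described as a chloroplast ABC transporter, fell to 1174, 943 and 973 normalised reads in the epl1ab-labelled libraries, against 3862, 4112 and 3899 in Col-0. CLC-E, a chloride channel homolog of the thylakoid, fell to 576, 449 and 483, against 1734, 1884 and 1696. In these 3 genes the groups were far apart.

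The members described as chloroplastic numbered 7, of which 5 were lower (KEA1, PHT4;4, ABCD2, BASS3 and BASS4) and 2 higher (ZIP4 and AT1G04570). Of all listed genes 33.9% were lower. Chloroplast carriers not described so also fell: NHD1, a sodium-proton antiporter, to 1962 ± 21.8 normalised reads in the epl1ab-labelled libraries, against 4340.2 ± 144 in Col-0, and MGT10, a magnesium transporter, to 1481 ± 60.7, against 3548 ± 125 (SD, n = 3 each). The grouping by the word chloroplastic, and NHD1 and MGT10, were chosen after the values were seen, so the count is a description only. PHT4;2, of root plastids and also not described so, went the other way, with 103 ± 9.16 normalised reads against 49.1 ± 7.21 in Col-0 (SD).

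ABCG40, an importer of abscisic acid, fell unevenly. It had 981, 309 and 117 normalised reads in epl1ab-labelled replicates 1, 2 and 3, against 2073, 2511 and 3669.9 in Col-0 replicates 1, 2 and 3. The log2 fold change was -2.55 ± 0.70 (SE, edgeR adjusted p = 0.00826), and -3.70 without epl1ab-labelled replicate 1. ENT3, a nucleoside importer, fell evenly, to 78.8, 122 and 106 normalised reads in the epl1ab-labelled libraries, against 511, 454 and 467 in Col-0.

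OPT5, described above with TIP3;1, had the highest log2 fold change of the other substrates in the authors' deposited tables (10.11) but was left out of the edgeR fit. The 5 largest rises called by edgeR at a mean of at least 100 normalised reads are given next. They were in an ABC protein, a CLC family protein, a mechanosensitive channel and a pair of cation-proton antiporters. AT3G21080, described as ABC transporter-like, rose to 508, 676 and 638 normalised reads in the epl1ab-labelled libraries, against 66.0, 44.0 and 97.6 in Col-0 (log2 fold change 3.14 ± 0.29 SE, edgeR adjusted p = 3.05e-05). It lies 1255 bases from ABCG15, which rose by 1.54 ± 0.22 on the log2 scale (SE). CLC-B, of the CLC chloride channel family, rose to 1012, 1174 and 1111 normalised reads in the epl1ab-labelled libraries, against 139, 208 and 156 in Col-0 (log2 fold change 2.71 ± 0.17 SE). MSL9, a mechanosensitive channel of root cells, rose to 267, 627 and 692 normalised reads in the epl1ab-labelled libraries, against 151, 73.0 and 86.6 in Col-0, with replicate 1 well below the others. The antiporters CHX17 and CHX16 rose by 1.88 ± 0.20 and 1.67 ± 0.14 on the log2 scale (SE).

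ABC transporters were the largest family, with 18 of 22 listed higher and 4 lower, where 66.1% of all listed genes were higher. ABCG23, ABCG30 and ABCG34 turned negative with DESeq2 size factors of the listed genes. Several ABC transporters were near 0 in Col-0. ABCB16 had 42.4, 56.9 and 68.6 normalised reads in the epl1ab-labelled libraries, against 0, 1.07 and 0 in Col-0, a ratio of 154 with a 95% exact interval of 27.4 to 6126. ABCG38 had 17.3, 23.1 and 16.7, against 0, 1.07 and 0 in Col-0, 52.0 times as many with bounds of 9 to 2084. The only Col-0 read of each was in replicate 2: without that library the edgeR log2 fold change was 8.87 for ABCB16, against 6.85 with it, and 7.32 for ABCG38, against 5.30, values that then depend on the prior count and are no bounds. ABCA5 and ABCA6 had 0 reads in Col-0, with lower bounds on the fold of 8.66 and 3.52. ABCG37, which exports phenolic compounds from roots, rose on many reads, to 3861, 5044 and 5001 normalised reads in the epl1ab-labelled libraries, against 1409, 1537 and 1789.8 in Col-0.

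Of 6 potassium carriers 4 were listed higher and 2 lower, KEA1 and KUP5, a share near the 66.1% of all listed genes that were higher. HAK5, the high-affinity importer known to be induced by potassium shortage, had 184, 80.1 and 61.1 normalised reads in the epl1ab-labelled libraries, against 5, 9.67 and 0 in Col-0. Its log2 fold change was 4.39 ± 0.74 (SE, edgeR adjusted p = 0.000725), 5.27 without Col-0 replicate 2 and 3.76 without epl1ab-labelled replicate 1. AKT1, the inward channel of root potassium uptake, rose to 2769, 3426 and 3679 normalised reads in the epl1ab-labelled libraries, against 1230.0, 1286 and 1335 in Col-0, and GORK, the outward channel of guard cells and roots, rose by 1.34 ± 0.11 on the log2 scale (SE). KUP5 fell by 1.15 ± 0.06 (SE, log2). The boron, ABC and potassium members, other than ABCG40, ABCD2, AT3G21080 and KEA1, were named after their values were seen, as were the sulfate, channel, purine and bicarbonate members that follow. The families were also chosen as groups after the values were seen, so their counts are descriptions only.

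All 3 sulfate transporters in the tables were higher, where 66.1% of all listed genes were. SULTR1;1, a root importer induced by sulfur shortage, had 53.7, 67.5 and 70.3 normalised reads in the epl1ab-labelled libraries, against 10, 20.4 and 9.76 in Col-0. Of 6 cyclic nucleotide-gated channels 5 were listed higher, beside that same 66.1%. CNGC3 and CNGC11 turned negative with DESeq2 size factors of the listed genes. CNGC3, CNGC11 and CNGC12 are adjacent on chromosome 2, and CNGC11 and CNGC12 are close copies whose single values are uncertain. Of 9 purine, nucleotide and ureide carriers 5 were listed higher and 4 lower, beside 66.1% higher among all listed genes. PUP10 turned negative with DESeq2 size factors of the listed genes. PUP19 rose to 60.6, 101 and 116 normalised reads in the epl1ab-labelled libraries, against 5, 4.30 and 9.76 in Col-0. At the other end, PUP3 had 0 reads in every epl1ab-labelled library, at least 6.16-fold lower against a floor of 3 counts over that group. AT4G32510, described as a bicarbonate transporter family protein, had 1.73, 0 and 0.837 normalised reads in the epl1ab-labelled libraries, against 40.0, 29.0 and 26.8 in Col-0; the ratio of Col-0 over the epl1ab-labelled libraries was 36.5, with an interval of 12.1 to 181, and its edgeR log2 fold change was -5.00, or -5.82 without epl1ab-labelled replicate 1.

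Members less than 10000 bases apart formed 9 pairs, of which 7 were listed in the same direction in the authors' deposited tables and 2 in opposite directions. The opposite pairs were SWEET10 with SWEET13, and ABCG41, lower, with ABCG30, higher. Since 71.5% of all members were listed higher, many pairs share a direction whatever their distance, and the count shows nothing particular to neighbours. Such neighbours are often duplicates of each other, so they are not independent, and the part of reads shared between copies was not tested.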

How the data were processed

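The members, lists and tests were chosen with earlier results of these data known. Per the labels' protocols, ribosome-depleted total RNA was sequenced from stranded libraries, as single-end reads of 50 bases; the submitters' processing notes name TAIR10 and DESeq2, and which aligner and counter were used is not given in these sources. Per the file headers, the authors deposited raw read counts per gene beside the p-value, adjusted p-value and log2 fold change of their own comparison. Tested on the values, every row is changed by at least 1 on the log2 scale with an adjusted p under 0.05, so other genes are not analysed here. Library scaling was recovered by fitting 5 factors to the authors' log2 fold changes of the 1774 genes whose reads numbered 200 or more per library (median absolute residual 0.00029). Counts were then fitted with the quasi-likelihood test of edgeR 4.0.16 under R 4.3.3 and limma 3.58.1 (default expression filter, no replicate block) over both tables, with Benjamini-Hochberg adjustment over 4773 genes; 557 were left out by the filter. The fit was tested on simulated data in which most genes were unchanged and all shared 1 dispersion. The real rows differ in both, so that test covers the code and not the calls. Each SE is the size of the log2 change divided by the root of F. A member was given the substrate of a pathway list holding its locus, else that of its description. Where the tables' name column held a date (OCT3, OCT6), the locus identified the gene, and 15 rows of all listed genes took their locus from coordinates. In groups of 12 or fewer every member is named; of the 73 others, the 5 largest changes each way among those called by edgeR with a mean of at least 100 normalised reads, so members left out of the fit, such as OPT5, could not enter. Promoters came from the RefSeq TAIR10.1 genome, in which 98.58% of nuclear rows have the same start and end. Ratios over 1 to 3 reads have 95% exact binomial (Clopper-Pearson) intervals and folds against 0 use a floor of 3 counts; both cover counting error only. DESeq2 1.42.0, other scalings, no filter, a replicate block and leaving out each library were tried. Levels are not per length and are not compared between genes, except where read numbers are called few or many.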

Additional observations from a re-analysis of the deposited data

How the results depend on the processing

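Counts of members called lower (34 in edgeR) moved by less than 1.5 times in every setting tried, as did the counts over all members when 1 library was left out (80 to 82 higher and 34 lower). Nitrate members called higher were 2 in place of 3 without any single library other than Col-0 replicate 1, NRT2.1 being lost. Size factors from DESeq2 over the listed genes moved the log2 fold change by a median of -1.11 over the genes, and TMM factors by -0.43. Both scalings take most genes as unchanged, while all these rows were chosen as changed, so they cannot decide whether a member changed. With those size factors DESeq2 called 34 members higher, against 81: 0 nitrate (0 also at an unadjusted p under 0.05; edgeR with the recovered factors called 3), 1 phosphate, 2 iron and zinc, 5 sugar, 4 amino acid and 19 other members. Among the named members PHO1;H7, PHT4;2 and AVT1D then turned to -0.05, -0.04 and -0.09. Others kept their sign at small values and were no longer called, such as SLAH3 (0.14), PHO1;H8 (0.16), ZIP4 (0.11), NRAMP3 (0.18) and AT3G20460 (0.02). TMM factors called 1 nitrate member higher. When epl1ab-labelled replicates 2 and 3 were left out, a setting added after seeing the data in which replicate 1 is assumed to vary like the Col-0 ones, 1 nitrate and 5 sugar members were called higher. DESeq2 with the recovered factors called 88 higher and 35 lower, and no filter 87 and 35. The labels number the replicates 1 to 3 in each genotype, but same-numbered libraries did not deviate together (correlations of -0.60, -0.02 and -0.50 over 2585 genes). These deviations are from the mean of 3 libraries per group, and epl1ab-labelled replicate 1 stood apart from replicates 2 and 3. The correlations therefore cannot decide whether equal numbers mark a shared experiment. The replicate block left 81 higher and 34 lower. Genes under the tables' thresholds have no values, so a known transporter not in the tables cannot be called unchanged. In members with few reads, depth limits the fold to the intervals and bounds given.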
